A study of Mus musculus with 6 samples.

Results

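Oxidative phosphorylation genes were compared between livers taken after injection of a lentiviral vector and livers of untreated mice. The members were the genes whose symbol starts with Nduf, Uqcr, Atp5, Cox4, Cox5, Cox6, Cox7 or Cox8, together with Sdha, Sdhb, Sdhc, Sdhd and Cyc1. This rule found 74 of the 8390 genes listed. Of these, 70 encode subunits of the 5 complexes: 35 of complex I, 4 of complex II, 8 of complex III, 10 of complex IV and 13 of complex V. Ndufa4 was first assigned to complex I and is counted here with complex IV, where it is now placed. The symbol Uqcr is an older name of Uqcr11. The other 4 members are no subunits: the complex I assembly factor Ndufaf1, the supercomplex factor Cox7a2l, Atp5sl, which was later tied to complex I assembly, and Cox4nb, which matches the symbol rule but is now called Emc8 and belongs to a membrane protein complex of the endoplasmic reticulum.

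The LV group comprised 3 liver samples from mice of the inbred strain C57BL/6, each taken 4 h after 3e8 transducing units of a lentiviral vector (LV), a gene delivery particle that cannot replicate, were injected into a vein. The untreated group comprised 3 liver samples of C57BL/6 mice that received nothing. Neither the age nor the sex of the mice is stated in the labels, and no mock-injected group is among the 6 samples, so the vector and the injection cannot be told apart. Expression was measured by RNA sequencing of whole liver, with 1 library per sample. The samples are called livers here, but the labels do not say whether each came from its own mouse, and p-values measure only the spread between these samples. The deposited values are whole numbers without a named unit. They were treated as expression scaled for transcript length and library size, but scaling for length was not tested. Each library summed to between 497295 and 526009. No read totals can be had from such sums: the depth is unknown, and counting intervals were not computed. In whole tissue, fewer cells of a type and less RNA per cell cannot be told apart.

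Oxidative phosphorylation takes place in the inner mitochondrial membrane. Complex I oxidises NADH and complex II oxidises succinate, and both pass electrons to ubiquinone. Complex III moves them on to cytochrome c, and complex IV hands them to oxygen. The proton gradient built by complexes I, III and IV drives complex V, the ATP synthase. Hepatocytes are rich in mitochondria and use this pathway to power the urea cycle, glucose synthesis and secretion. A few core subunits of complexes I, III, IV and V are encoded by the mitochondrial genome. Those genes, searched for under both styles of symbol, were not among the 8390 genes listed, so the results concern nuclear genes.

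No oxidative phosphorylation gene passed the test in either direction. The median fold change was slightly negative in each of the 5 complexes. It ran from -0.12 in complex I to -0.065 in complex V, against -0.068 over all tested genes. Of the 74 members, all of which passed the filter on low values, 0 were higher and 0 were lower in LV livers at the 0.05 threshold on limma p-values adjusted over all genes by Benjamini-Hochberg, against 3.76% of all 8386 tested genes higher and 0.87% lower. The smallest adjusted p of a member was 0.178. At an unadjusted p under 0.05, 6 members were lower (8.11%) and 1 was higher, where the shares of all tested genes were 10.3% and 9.21%. Fold changes are differences of mean log2(value + 1), LV minus untreated, and understate the change of genes with low values.

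The data bounded the size of any change. For 73 of the 74 members the 95% interval of the log2 fold change lay within -1 and 1. The exception was Cox7c, whose interval reached 1.17. The median half-width of the intervals was 0.27, and for 21 members the interval reached below -0.50. Smaller shifts of single genes were therefore not resolved with 3 livers per group.

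The sign of the fold changes leaned downward. It was negative for 61 of the 74 members (82.4%), and the median over members was -0.11. Negative values were common elsewhere too: they made up 58.1% of all tested genes, with a median of -0.068, and 69.5% of the 1237 genes with a mean value of at least 50, with a median of -0.13. In 12 members (16.2%) all 3 LV values lay below all 3 untreated values, where the share was 11% of all tested genes and 17.6% of those with a mean of at least 50. In 1 member, Cox7a2, all LV values lay above, against 8.65% of all tested genes.

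**Figure D1:**
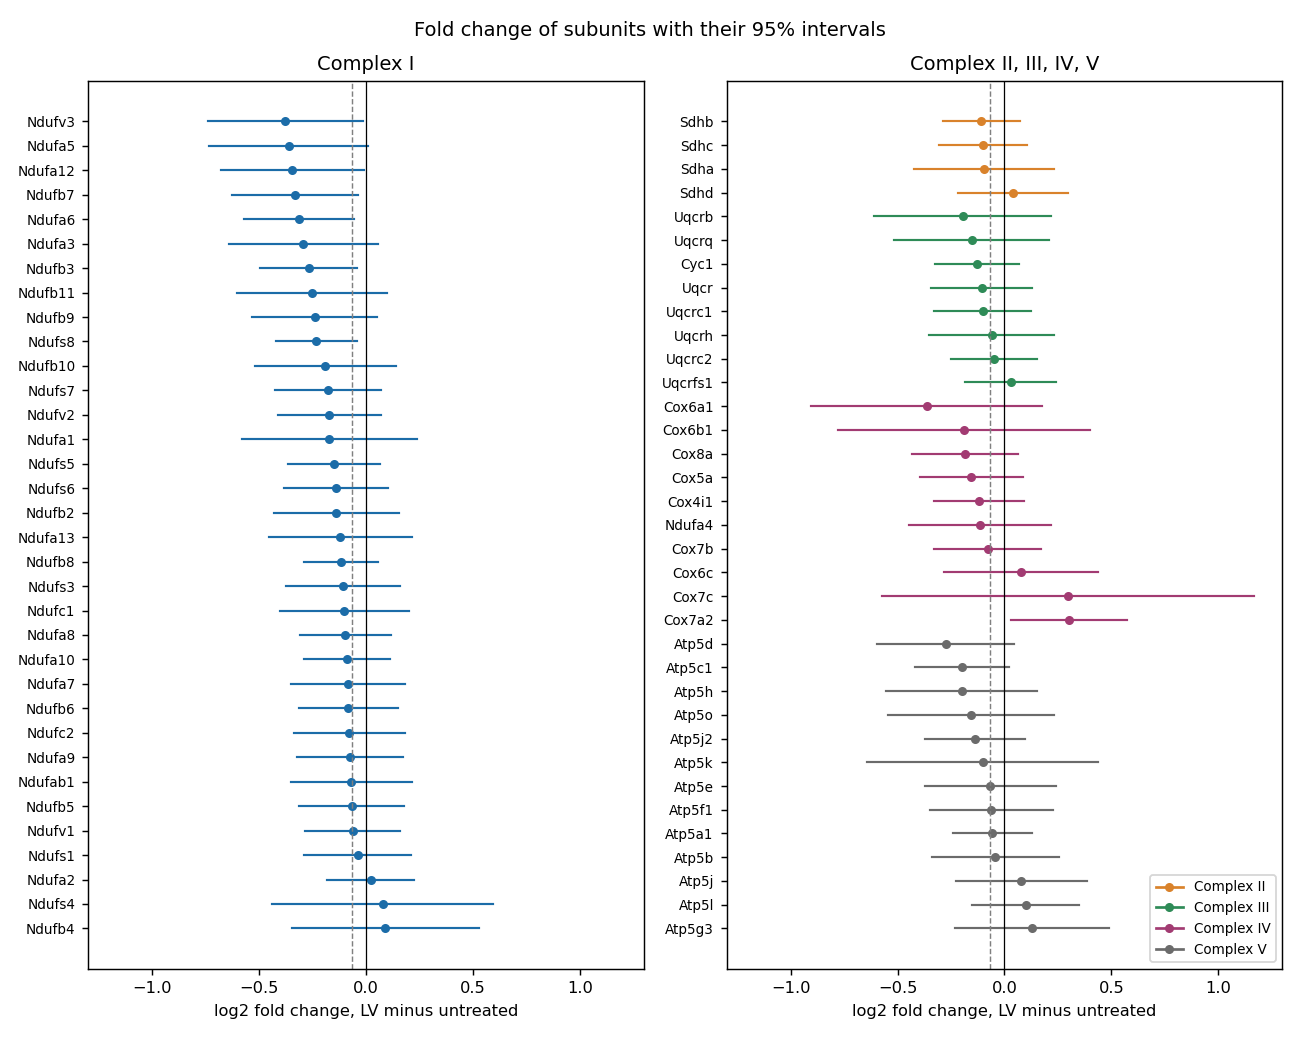
Log2 fold change (LV minus untreated, x axis) of the subunits reported here, with bars for the 95% interval from limma (n = 3 livers per group); colours mark the complex, the solid line is at 0 and the dashed line marks the median of all tested genes (-0.068). Most points lie between -0.38 and 0.13, and Cox7a2 (0.30) and Cox7c (0.30) lie furthest to the right.

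Untreated replicate 3 stood apart for these genes and held the highest value of the 6 libraries for 37 of the 70 subunits, whereas LV replicate 3 did so for 1. Subunit mRNAs are short: their median length was 955 bp against 3196 bp for all tested genes, and 58 of the 69 subunits with a length in GENCODE M21 fell in the shortest of 5 equal classes of genes by length. Over all genes of that class the median log2 fold change was -0.12. In untreated replicate 3 the median deviation from the mean of the 6 livers went from 0.095 in the shortest class to -0.15 in the longest. In untreated replicate 2 it went the other way, from 0.028 to 0.19, and in LV replicate 3 from -0.080 to 0.088. The part of this length trend in the members' fold changes was not tested. Without untreated replicate 3 the median fold change was -0.077 over the members and -0.096 over all tested genes. In that fit 1 member rather than 6 was lower at an unadjusted p under 0.05. LV replicate 3 and untreated replicate 2 also differed from the other livers in genes with male-biased expression in liver, with median values of 169 and 159 over 9 such genes and at most 8 in each other library. Over 10 genes with female-biased expression their medians were 4 and 4.5, against 57 to 84 in the other libraries. Leaving out LV replicate 3 and untreated replicate 2 was decided once the data had been seen. It gave a median of -0.12 over the members and -0.013 over all tested genes. There were still 0 calls among the members (smallest limma adjusted p of a subunit 0.171, for Cox8a).

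**Figure D2:**
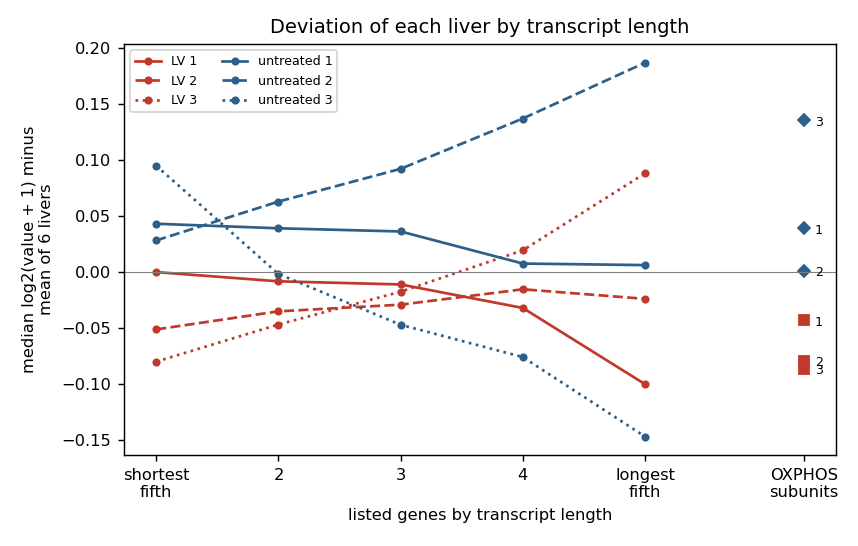
Median deviation of log2(value + 1) from the mean of the 6 livers (y axis) in each library, for listed genes with a mean of at least 5 split into 5 equal classes by transcript length (x axis), with the same median for the 70 oxidative phosphorylation subunits at the right (red squares LV, blue diamonds untreated; digits give the replicate). For the subunits, the 3 LV livers lie between -0.087 and -0.043 and the untreated livers between 0.0013 and 0.14, and untreated replicate 3 slopes from 0.095 in the shortest class to -0.15 in the longest.

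Motifs of known regulators of respiratory genes were searched for in the members' promoters, and each was found in 13.8% to 27.6% of the subunits with a window. Nuclear respiratory factor 1 (NRF-1), ETS factors such as GABPA, YY1 and the oestrogen-related receptor ERR alpha are known to bind promoters of this pathway. RefSeq windows of 300 bases, from 250 before to 50 after the transcription start, were available for 58 of the 70 subunits, and each motif was searched on both strands. The NRF-1 motif, spelled GCGCA, any base, then GCGC, overlaps its own reverse complement and was found for 15 of the 58 subunits (25.9%), for 12.3% of 6696 listed genes with a window and for 5.19% of 27025 genes in the RefSeq table. It occurred in 6 of 31 complex I, 2 of 3 complex II, 1 of 4 complex III, 1 of 8 complex IV and 5 of 12 complex V subunits. The ETS motif CCGGAAG was found for 16 subunits (27.6%, against 21.6% of listed genes). The YY1 motif AAGATGG was found for 11 subunits (19.0%, against 9.32%). The ERR motif AAGGTCA was found for 8 subunits (13.8%, against 4.24%). The shares are descriptions of letters in these windows, and genes with several start sites had more than 1 window.

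To show what these motifs look like in the members described here, 1 window with the NRF-1 motif is given per complex. The coordinates are those of the RefSeq table on GRCm38.p6, which is not the build named for the files. Each sequence is the strand of the gene, with the motif or its reverse complement in capitals. In the Ndufa6 window the capitals are the reverse complement of the spelled motif. The Ndufa6 window is at chr15:82354249-82354278 on the minus strand, with its motif from base 24 after the start. That of Sdhd is at chr9:50603909-50603938 on the minus strand (from base -79), and that of Uqcrc1 at chr9:108936668-108936697 on the plus strand (from base 31). The Cox6a1 window is at chr5:115349101-115349130 on the minus strand (from base -162), and that of Atp5c1 at chr2:10080430-10080459 on the minus strand (from base -17).
Ndufa6: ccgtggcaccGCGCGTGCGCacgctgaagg
Sdhd: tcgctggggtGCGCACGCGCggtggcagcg
Uqcrc1: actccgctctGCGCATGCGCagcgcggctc
Cox6a1: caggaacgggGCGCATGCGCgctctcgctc
Atp5c1: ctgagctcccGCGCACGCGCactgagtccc

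The ETS motif is shown for the 2 carriers of the motif with the smallest p-values in complex I and for a subunit each of complexes II and IV. For Ndufs8 and Cox8a the capitals are its reverse complement, CTTCCGG. The windows are at chr19:3912741-3912770 on the minus strand for Ndufs8 (motif from base 16), chr8:83566727-83566756 on the plus strand for Ndufb7 (from base -20), chr4:140961266-140961295 on the plus strand for Sdhb (from base 7) and chr19:7217603-7217632 on the minus strand for Cox8a (from base -5).
Ndufs8: ttaggctccgcCTTCCGGttgaaccgcatc
Ndufb7: gcctagatgacCCGGAAGacactgaagggg
Sdhb: gctcggagaaaCCGGAAGcggccttccact
Cox8a: tttccgaaataCTTCCGGctcgggcgtccg
The median log2 fold change was -0.14 for the 15 subunits with the NRF-1 motif and -0.11 for those without, and -0.11 and -0.12 for those with and without the ETS motif. It was -0.10 and -0.11 for YY1 and -0.012 and -0.12 for ERR. The 8 subunits with the ERR motif were 3 of complex I, 1 of complex II and 4 of complex V. The differences between these medians, and the part of the complexes in them, were not tested.

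Complex I, the largest of the complexes, holds 35 of the 70 subunits. Of these, 0 passed and 31 had a negative fold change (88.6%). The negative share was 87.5% in complex III, 58.1% of all tested genes and 69.5% of those with a mean of at least 50. The median of complex I was -0.12, against -0.068 over all tested genes and -0.13 over those with a mean of at least 50. At an unadjusted p under 0.05, 6 complex I subunits were lower (17.1%). That share was 10.3% of all tested genes and 11.4% of those with a mean of at least 50. Per library, the median deviation from the untreated mean was -0.14, -0.15 and -0.18 in LV replicates 1 to 3 and -0.057, -0.056 and 0.10 in the untreated replicates. All 3 LV medians lay below the lowest untreated one, as they did over the 1237 genes with a mean of at least 50 (-0.10, -0.12 and -0.094 against 0.0043, 0.012 and -0.016). Without untreated replicate 3 the median fold change of complex I was -0.085, against -0.096 over all tested genes.

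Among the core subunits of complex I, which carry the flavin and the iron-sulphur clusters or form the ubiquinone site, Ndufs8 had the smallest p of all members. Ndufs8, an iron-sulphur subunit next to the ubiquinone site, had values of 69, 70 and 64 in LV livers against 76, 82 and 81 in untreated ones. Its groups did not overlap, and the log2 fold change was -0.23 ± 0.075 SE (limma adjusted p = 0.178). Ndufs7, which holds the last cluster before ubiquinone, had 84, 86 and 95 against 99, 92 and 110, and its groups overlapped. Its fold change was -0.18 (95% interval -0.43 to 0.069). Ndufv1, which binds NADH and flavin, was nearly level with 118, 121 and 105 against 124, 113 and 122. Ndufv2, its iron-sulphur partner, had 38, 37 and 37 against 38, 42 and 47. Ndufs1, the largest subunit, had 44, 40 and 43 against 41, 49 and 41. LV replicate 2 lay just below the untreated range, and the fold change of Ndufs1 was -0.040. Ndufs3, another core subunit, had 67, 56 and 57 against 60, 64 and 70. The core subunits together had a median fold change of -0.11 over 7 genes, and the accessory subunits of -0.13 over 28.

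The accessory subunits of complex I, which surround and stabilise the core, held the other 5 genes at an unadjusted p under 0.05. Ndufa6, an accessory subunit of the LYR-motif family, had 193, 191 and 217 in LV livers against 226, 268 and 255 in untreated ones. Every LV value lay below every untreated one, and the mean went from 249.7 ± 21.5 to 200.3 ± 14.5 (SD, n = 3; log2 fold change -0.31 ± 0.10 SE, limma adjusted p = 0.179). Ndufb3, a membrane-arm subunit, had 53, 63 and 55 against 71, 67 and 68. Its groups were also separate (-0.27 ± 0.091 SE, adjusted p = 0.193 in limma). Ndufb7, another membrane-arm subunit, had 126, 131 and 124 against 154, 143 and 187. The highest of these was untreated replicate 3, and without it the fold change of Ndufb7 was -0.22, against values down to -0.42 over the 14 alternatives.

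Ndufv3 and Ndufa12 showed overlapping groups. Ndufv3, an accessory subunit of the NADH-oxidising module, had 36, 34 and 43 in LV livers against 43, 48 and 57 in untreated ones, with LV replicate 3 equal to the lowest untreated value (-0.38, 95% interval -0.74 to -0.017). This was the most negative fold change among the members. Ndufa12, which joins the complex late in assembly, had 53, 42 and 43 against 53, 66 and 57 (-0.35, 95% interval -0.68 to -0.012). The limma adjusted p of both was 0.242 and 0.245.

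Ndufs6 and Ndufb8 were separate between the groups with small differences. Ndufs6, a zinc-binding subunit, had 111, 118 and 118 against 121, 143 and 120. Ndufb8, a membrane-arm subunit, had 114, 121 and 114 against 128, 122 and 129, a fold change of -0.12. The accessory subunit with the highest level, Ndufb9, had 307, 280 and 343 against 358, 338 and 402, and LV replicate 3 lay inside the untreated range. Positive fold changes in complex I included those of Ndufb4 (0.089), Ndufs4 (0.077) and Ndufa2 (0.020). Ndufs4, whose loss causes Leigh-like disease in mice, had 72, 68 and 46 against 49, 63 and 62, so LV replicate 3 was the lowest library and LV replicates 1 and 2 the highest. Ndufa2, an accessory subunit of the matrix arm, had 156, 173 and 160 against 169, 159 and 154.

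Both arms of complex I had mostly negative fold changes. The 16 measured subunits of the matrix arm, which takes up electrons from NADH, had a median fold change of -0.12 and 13 negative (81.25%). The 18 of the membrane arm, which pumps protons, had a median of -0.13 and 17 negative values (94.4%). Negative values made up 58.1% of all tested genes and 69.5% of those with a mean of at least 50. The split by arm was chosen after the values were seen. The acyl carrier Ndufab1, which sits in both arms, was left out of it. The assembly factor Ndufaf1 had 16, 12 and 15 against 13, 16 and 15 (fold change -0.036).

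**Figure D3:**
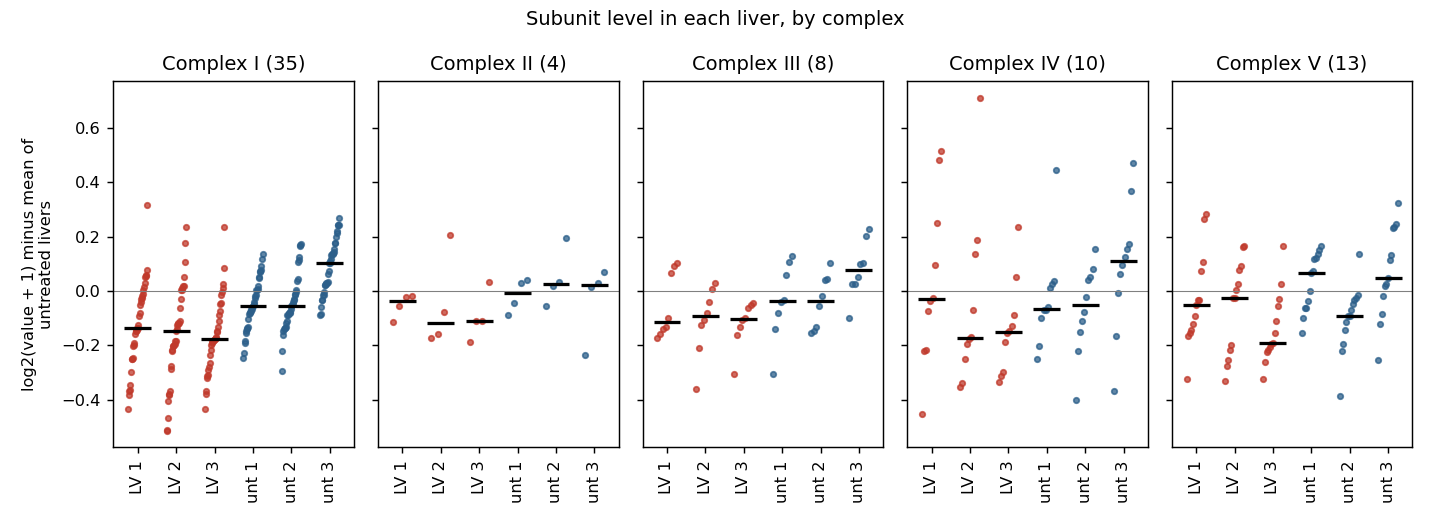
Each point is 1 subunit in 1 liver: log2(value + 1) minus the mean of the untreated livers for that gene (y axis), by library (x axis) and complex (panel, with the number of subunits); points are ordered by value within a library and bars are medians. In complex I the LV medians (-0.14, -0.15 and -0.18) lie below the untreated ones, and the spread of subunits within a liver is wider than the shift between groups.

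Complex II, the succinate dehydrogenase of the citric acid cycle and the only complex with no mitochondrially encoded subunit, had small differences between the groups. Sdha, the flavoprotein that oxidises succinate, had 180, 173 and 160 in LV livers against 188, 209 and 155 in untreated ones, which overlapped. Sdhb, the iron-sulphur subunit, had 203, 189 and 195 against 215, 203 and 215, where LV replicate 1 equalled the lowest untreated value (-0.11 ± 0.072 SE, limma adjusted p = 0.46). The membrane anchors Sdhc and Sdhd had fold changes of -0.10 and 0.041. Sdhc had 126, 113 and 118 against 120, 129 and 134, and Sdhd 139, 174 and 154 against 146, 154 and 152. The median of the 4 genes was -0.098, with 0 called in limma. The fold change was negative in 3 (75%, against 58.1% of all tested genes and 69.5% of those with a mean of at least 50). At an unadjusted p under 0.05 there were 0, against 10.3% of all tested genes lower and 9.21% higher. The median of complex II was -0.046 without untreated replicate 2 (-0.031 over all tested genes). Leaving out LV replicate 3 as well, a choice made after the data were seen, gave -0.020 (-0.013 over all tested genes). The LV medians per library were -0.038, -0.12 and -0.11, and the untreated ones -0.0086, 0.024 and 0.020.

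Complex III had a median fold change of -0.10, with 0 subunits called in limma. The sign was negative in 7 of 8 (87.5%, against 58.1% of all tested genes and 69.5% of those with a mean of at least 50). At an unadjusted p under 0.05 there were 0, against 10.3% of all tested genes lower and 9.21% higher. Cyc1, cytochrome c1, had 172, 179 and 169 in LV livers against 184, 182 and 203 in untreated ones. It was the only complex III subunit whose groups did not overlap (12.5%, against 11% of all tested genes with LV lower). Its log2 fold change was -0.13 (95% interval -0.33 to 0.070). The Rieske iron-sulphur protein Uqcrfs1 had 196, 186 and 177 against 190, 188 and 170 and was the 1 gene with a positive fold change (0.029). Uqcrq, a small subunit with the highest level in the complex, had 527, 591 and 476 against 556, 532 and 690, and untreated replicate 3 was well above all others. The core proteins Uqcrc1 and Uqcrc2, which face the matrix, had 173, 184 and 173 against 204, 173 and 193, and 107, 95 and 95 against 100, 101 and 106. Both overlapped. Uqcrb had 56, 49 and 61 against 51, 68 and 73, with the most negative fold change of the complex (-0.20, 95% interval -0.61 to 0.22). The hinge protein Uqcrh had 275, 223 and 247 against 234, 265 and 277, and Uqcr 157, 154 and 157 against 184, 151 and 171. Without untreated replicate 3 the median of the complex was -0.059, against -0.096 over all tested genes.

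Complex IV had 7 negative and 3 positive fold changes, 0 genes passing in limma and a median of -0.12. The negative share was 70%, against 58.1% of all tested genes and 69.5% of those with a mean of at least 50. At an unadjusted p under 0.05, 0 were lower and 1 was higher, against 10.3% and 9.21% of all tested genes. Cox7a2, the isoform of subunit 7a known from liver, was the only member higher at an unadjusted p under 0.05. It had 216, 176 and 182 in LV livers against 147, 152 and 165 in untreated ones, so the groups did not overlap. The mean was 191 ± 21.6 against 155 ± 9.29 (SD, n = 3), a log2 fold change of 0.30 ± 0.11 SE with an adjusted p = 0.216 in limma and adjusted p values between 0.202 and 0.393 over the 14 alternatives. Cox7c, whose fold change was as large, had 82, 94 and 45 against 78, 54 and 44. LV replicate 3 and untreated replicates 2 and 3 were low, and the interval ran from -0.57 to 1.17. Cox6c had 235, 217 and 178 against 199, 220 and 176 (0.078).

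The lower side of complex IV included Cox6a1, the isoform of subunit 6a known from liver and other non-muscle tissues. It had 277, 300 and 309 in LV livers against 319, 326 and 527 in untreated ones. Its groups were separate, but untreated replicate 3 stood far above the rest (log2 fold change -0.36, 95% interval -0.90 to 0.18, limma adjusted p = 0.408). Cox6b1, which faces the intermembrane space, had 374, 274 and 282 against 359, 265 and 452, where LV replicate 1 and untreated replicates 1 and 3 were high. Cox8a had 389, 400 and 407 against 461, 408 and 494 and did not overlap by 1 unit. Cox4i1, which takes part in the regulation of the complex by ATP, had 377, 346 and 373 against 378, 419 and 394, also separate by 1 unit (-0.12). Cox5a had 178, 152 and 159 against 169, 186 and 189, Cox7b 179, 175 and 168 against 176, 170 and 207, and Ndufa4 261, 270 and 315 against 264, 315 and 338. Without untreated replicate 3 the median of complex IV was -0.022, against -0.096 over all tested genes. The muscle and heart isoforms Cox6a2, Cox7a1 and Cox8b and the isoform Cox4i2 were not among the genes listed. Cox7a2l, which joins complexes III and IV, had 37, 41 and 42 against 39, 54 and 44.

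**Figure D4:**
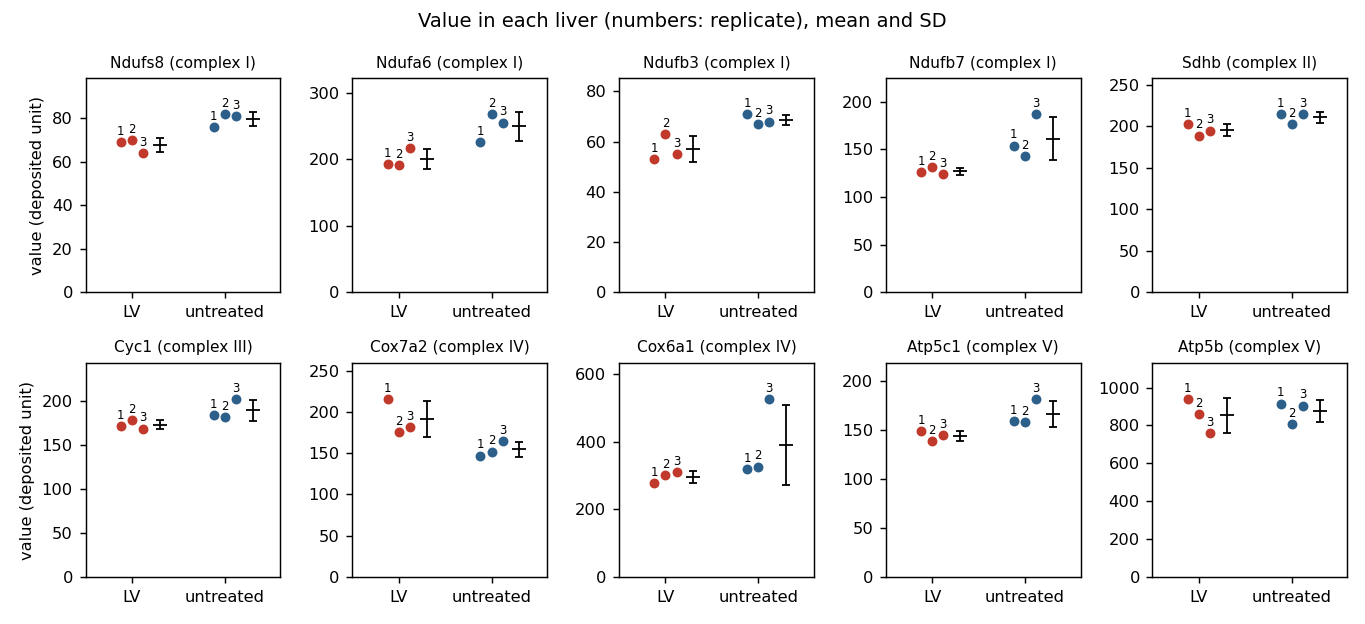
Value in the deposited unit (y axis, from 0) of 10 members in each liver of the LV (red) and untreated (blue) groups, with digits for the replicate and black bars for the mean and SD (n = 3). Cox7a2 is the panel with all LV values above the untreated ones, from 176 to 216 against 147 to 165, and Cox6a1 shows untreated replicate 3 at 527.

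Complex V, the ATP synthase, had 10 negative and 3 positive fold changes, 0 genes called in limma and a median of -0.065. The negative share was 76.9%, against 58.1% of all tested genes and 69.5% of those with a mean of at least 50. At an unadjusted p under 0.05 there were 0, against 10.3% of all tested genes lower and 9.21% higher. The catalytic head of complex V was level. Atp5b, the beta subunit that carries the catalytic sites and the most abundant member, had 941, 860 and 758 in LV livers against 915, 809 and 905 in untreated ones (fold change -0.042, 95% interval -0.34 to 0.25). Atp5a1, the alpha subunit, had 461, 464 and 437 against 472, 464 and 480, with LV replicate 2 equal to untreated replicate 2.

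Within the central stalk, which turns inside the head, Atp5c1 and Atp5d had the smallest p-values of the complex, whereas Atp5e did not. Atp5c1, the gamma subunit, had 149, 139 and 145 in LV livers against 159, 158 and 182 in untreated ones, and did not overlap (-0.20 ± 0.088 SE, limma adjusted p = 0.287). Atp5d, the delta subunit, had 278, 287 and 298 against 339, 304 and 409, likewise separate and highest in untreated replicate 3 (-0.27 ± 0.13 SE, adjusted p = 0.302 in limma). Atp5e, the epsilon subunit, had 173, 197 and 161 against 207, 167 and 182, which overlapped.

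The peripheral stalk and the membrane part of complex V had 8 measured subunits, with a median fold change of -0.082. Of these, 5 were negative (62.5%, against 58.1% of all tested genes). The groups overlapped in all 8. Over all tested genes, 11% were lower in every LV liver than in every untreated one and 8.65% were higher. Atp5h and Atp5o, of the peripheral stalk, had 73, 60 and 65 against 68, 71 and 90, and 135, 128 and 132 against 137, 126 and 184. In both, untreated replicate 3 was the high library. Atp5f1 had 100, 95 and 79 against 100, 89 and 96, and Atp5j 220, 186 and 176 against 201, 181 and 168. The proton-carrying ring subunit Atp5g3 had 382, 331 and 319 against 340, 345 and 263, the largest positive fold change of the complex (0.13, 95% interval -0.23 to 0.49). The genes Atp5g1 and Atp5g2, which encode the same mature ring subunit, were not among the genes listed. The membrane subunit genes Atp5k, Atp5l and Atp5j2 had fold changes of -0.10, 0.10 and -0.14. Outside the 5 complexes, Atp5sl had 11, 12 and 15 against 14, 19 and 16, and Cox4nb 6, 6 and 5 against 5, 6 and 5.

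The shift of complex V differed between single livers. The median deviation from the untreated mean was -0.053, -0.024 and -0.19 in LV replicates 1 to 3 and 0.064, -0.091 and 0.049 in the untreated replicates. Untreated replicate 2 thus lay below LV replicates 1 and 2. Without LV replicate 3 the median fold change of the complex was -2.27e-06, and without untreated replicate 2 it was -0.14. Over all tested genes the medians of these fits were -0.069 and -0.031.

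Levels differed far more between complexes and between subunits than between the groups. On the deposited unit, complex IV had the highest median subunit level of the 5 complexes in each of the 6 libraries (231.5 to 272.5). Complex I had the lowest (70 to 93). Whether this unit is scaled for length was not tested, and median transcript lengths ran from 652 bp in complex IV to 2065.5 bp in complex II. Complexes II (153.5 to 178.5), III (171 to 187) and V (161 to 201) overlapped and changed order between libraries. Within complex I, mean levels over the 6 libraries ran from 19.5 for Ndufab1 to 338 for Ndufb9, and within complex V from 27.7 for Atp5l to 865 for Atp5b. In complex II they spanned only 123 to 203. Subunit genes of this pathway have many processed pseudogenes, and the sources used here do not give how the authors' counting shared reads between near-identical copies, so single levels are uncertain.

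**Figure D5:**
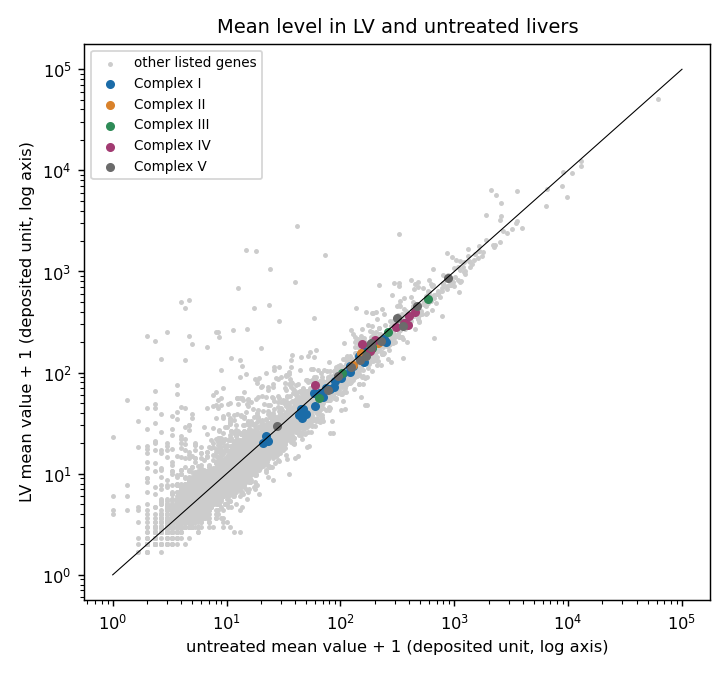
Mean value + 1 in LV (y axis) against untreated livers (x axis), both on log axes in the deposited unit, for all tested genes (grey) and the subunits of each complex (coloured; n = 3 livers per group); the line marks equal values. The subunits lie along the line between untreated means of 20 (Ndufab1) and 876.3 (Atp5b), and some grey points lie far above it.

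Regulators of mitochondrial gene expression gave 0 calls among 19 measured genes in limma. At an unadjusted p under 0.05, 4 were lower (21.1%) and 2 higher, where the shares of all tested genes were 10.3% and 9.21%. Ppargc1b, a coactivator of respiratory genes, had 1, 2 and 4 in LV livers against 7, 9 and 11 in untreated ones. The groups were separate, with a log2 fold change of -1.67 ± 0.36 SE and an adjusted p = 0.0747 in limma. That p passed the threshold in 4 of 14 alternatives: 0.0375 without LV replicate 3, 0.0426 among genes averaging at least 5, 0.0334 with median of ratios scaling and 0.0346 with equal column sums. Esrra, the gene of ERR alpha, had 14, 15 and 17 against 20, 22 and 22 (-0.45 ± 0.10 SE, limma adjusted p = 0.0759). These values are low and rounded to whole numbers.

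Other regulators were chosen for mention after their values were seen. Ppargc1a, the coactivator best known for driving mitochondrial biogenesis, had 2, 3 and 3 against 4, 2 and 4 (adjusted p = 0.666 in limma). Nrf1, which encodes NRF-1, had 6, 5 and 6 against 4, 5 and 4. Tfam, which packages and transcribes the mitochondrial genome, had 8, 7 and 8 against 8, 10 and 10, and Gabpa had 8, 8 and 10 against 8, 11 and 9. Ppara, a nuclear receptor that controls fatty acid oxidation, had 13, 26 and 22 against 30, 35 and 32, with separate groups (-0.69, 95% interval -1.34 to -0.049, limma adjusted p = 0.227).

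Genes that work beside the 5 complexes also gave no call in limma. Of 34 measured assembly factors outside the members, 0 passed. At an unadjusted p under 0.05, 3 were higher and 3 lower (8.82%), against 9.21% and 10.3% of all tested genes. Cox15, which makes the haem of complex IV, had 17, 18 and 16 against 13, 12 and 10 (0.51 ± 0.12 SE, limma adjusted p = 0.0826, and 0.0472 with median of ratios scaling). The complex II assembly factor Sdhaf1, listed as 0610010E21Rik, had 11, 12 and 11 against 16, 16 and 22 (-0.61, adjusted p = 0.0919 in limma). Both had separate groups and opposite directions.

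Among 14 citric acid cycle genes 0 passed and 0 were at an unadjusted p under 0.05 in limma. The fold change was negative in 10 (71.4%, against 58.1% of all tested genes), with a median of -0.097. Idh3g, of the NAD-linked isocitrate dehydrogenase, had 43, 45 and 44 against 47, 51 and 51. Among 17 electron carrier and coenzyme Q genes 0 passed and 8 were negative (47.1%). At an unadjusted p under 0.05, 1 was lower (5.88%, against 10.3% of all tested genes). That gene was Coq10a, a coenzyme Q binding protein, with 5, 9 and 10 against 12, 16 and 14. Etfdh, which feeds electrons from fatty acid oxidation to ubiquinone, had 99, 97 and 107 against 115, 104 and 126.

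Carriers, porins and uncoupling proteins gave 0 calls of 12 in limma and, below an unadjusted p of 0.05, 4 genes that were lower (33.3%, against 10.3% of all tested genes; median -0.20, 10 negative). Slc25a20, the carnitine-acylcarnitine carrier, had 34, 41 and 38 against 54, 45 and 62, and Slc25a10, the dicarboxylate carrier, 68, 90 and 77 against 99, 98 and 131. Both were lower in every LV liver than in every untreated one, as were 4 of the 12 genes and 11% of all tested genes. The 19 measured mitochondrial import genes had 17 negative fold changes (89.5%), a median of -0.11, 0 at an unadjusted p under 0.05 and 0 calls in limma. Negative values made up 58.1% of all tested genes (median -0.068) and 69.5% of those with a mean of at least 50 (median -0.13). Timm13, an import chaperone, had 47, 50 and 42 against 52, 50 and 54, and Timm17a, of the inner membrane translocase, 16, 16 and 16 against 15, 24 and 22.

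Glycolysis genes went both ways, with 0 of 17 called in limma. At an unadjusted p under 0.05, 3 were higher and 2 lower (11.8%), against 9.21% and 10.3% of all tested genes. Aldoc, an aldolase, had 9, 13 and 13 against 20, 19 and 22 (-0.77 ± 0.16 SE, limma adjusted p = 0.0708). It passed at 0.0459 among genes averaging at least 5 and at 0.0496 with equal column sums. The pyruvate kinase gene listed as Pkm2 had 11, 15 and 10 against 8, 6 and 7 (0.69 ± 0.18 SE, adjusted p = 0.112 in limma).

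Markers of hepatocytes had the highest summed values of the cell types examined. All 14 hepatocyte markers were measured, and 0 were called in limma. Their values summed to between 77120 and 87094 in LV and between 80222 and 105280 in untreated libraries. At an unadjusted p under 0.05, 2 were higher and 1 lower (7.14%), against 9.21% and 10.3% of all tested genes. The sum over 11 of 13 Kupffer cell markers was 138 to 324 in LV and 257 to 383 in untreated livers, with 0 called in limma. Of their fold changes 9 of 11 were negative (81.8%, against 58.1% of all tested genes). At an unadjusted p under 0.05, 1 was lower (9.09%, against 10.3%). Sinusoidal endothelial markers summed to 110 to 194 against 197 to 221, with 7 of 10 negative (70%, against 58.1%) and 0 called. At an unadjusted p under 0.05, 1 was higher, where the share of all tested genes was 9.21%. Stellate cell markers summed to 139 to 173 against 135 to 179, and the 3 erythroid genes to 558 to 1365 against 551 to 1799. Of the neutrophil, lymphocyte and heart or muscle markers 0 were among the genes listed, and of the cholangiocyte markers 1; how the listed genes were chosen is unknown, so this does not show that those cells were absent. The part of the Kupffer and endothelial marker differences in the members' values was not tested.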

How the data were processed

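RNA sequencing of 6 mouse livers (3 LV, 3 untreated) was analysed from 1 table deposited by the authors, with 1 value column per library, each matched to a sample by its description. The values are treated as a score: the deposited whole numbers carry no named unit, and column sums were nearly alike. Among genes with a mean of 2 to 5, the variance between replicates averaged 0.255 of the mean in LV and 0.245 in untreated libraries, less than counted reads allow. The genome build mm9 is named per the submitters' processing notes; the sources used here name no aligner, counter, annotation, scaling or rule for the choice of genes.

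A gene was tested when 3 or more libraries gave it 1 or more (8386 of 8390). On log2(value + 1), limma 3.58.1 (R 4.3.3) compared the groups with a variance trend on intensity. Its p-values are two-sided and adjusted by Benjamini-Hochberg over the genes tested. Intervals are 95% from the same fit. Members and gene lists were chosen with earlier results of these data known. Values of some single genes are not reported here, although counts and medians include them. Complex medians and counts are descriptions without a test. Members described were picked mainly by small p, high mean or the largest increase within each complex. Others were added where a sentence was about their complex. Pathway lists without a call had up to 2 genes named, apart from the further regulators. List genes were matched by symbol or a unique RefSeq synonym. Transcript lengths came from GENCODE M21 and promoter windows from RefSeq (GRCm38.p6). Alternatives left out each library, added a replicate block, used a pseudocount of 0.1, no filter or a mean of at least 5, and applied 3 scalings.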

Additional observations from a re-analysis of the deposited data

How the results depend on the processing

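No member passed the limma threshold under any of the 14 alternatives; the smallest limma adjusted p of a subunit was 0.133 (Ndufa6, without LV replicate 3), and that of Cox4nb, which is no subunit, was 0.0784 without LV replicate 3 and untreated replicate 2. Over all genes, 315 were higher and 73 lower. Leaving out 1 library gave 119 (without LV replicate 2) to 313 (without LV replicate 3) higher genes and 10 to 116 lower ones, without the same libraries. Without LV replicate 3 and untreated replicate 2, a choice made after the data were seen, 136 genes were lower. The labels number both groups 1 to 3 and do not say whether the numbers pair the samples. Deviations of same-numbered livers correlated at 0.28, -0.47 and -0.34 across genes, and LV replicate 3 correlated best with untreated replicate 2 (0.61). With 3 livers per group, these correlations cannot decide whether same-numbered livers were handled together. With the replicate number as a block, 145 genes were higher, 11 were lower and 3 members were lower at an unadjusted p under 0.05. That count of members was 6 as reported, 3 with quantile normalization, 2 with equal column sums, 0 with median of ratios scaling and 1 (without untreated replicate 3) to 8 (without untreated replicate 1) with 1 library left out.

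Median of ratios scaling moved the median of all tested genes from -0.068 to -0.019 and that of all members from -0.11 to -0.055. It gave -0.068 for complex I, -0.046 for complex II, -0.052 for complex III, -0.063 for complex IV and -0.013 for complex V, in place of -0.12, -0.098, -0.10, -0.12 and -0.065. Quantile normalization gave -0.063 for complex II, and it was -0.020 when LV replicate 3 and untreated replicate 2 were dropped. Over all tested genes these fits gave -0.067 and -0.013. With 1 library left out, the median ran from -0.13 to -0.046 in complex II, from -0.16 to -0.022 in complex IV, where the value nearest 0 came without untreated replicate 3, and from -0.14 to -2.27e-06 in complex V, where it came without LV replicate 3. Over all tested genes the median ran from -0.096 (without untreated replicate 3) to -0.031 (without untreated replicate 2). No complex median was positive under the alternatives run, but that of complex V without LV replicate 3 is 0 at the precision of the data. The cause of these shifts was not tested.

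Small fold changes, of which 0 passed the test, changed sign. Median of ratios scaling gave 0.011 for Atp5b, 0.014 for Ndufaf1, 0.012 for Ndufs1 and 0.0035 for Uqcrc2. Quantile normalization gave 0.013 for Ndufv1 and 0.0060 for Uqcrc2. Without LV replicate 3 and untreated replicate 2 the values were -0.13 for Ndufb4, 0.032 for Ndufs1 and 0.048 for Sdha. With 1 library left out, complex I values ran from -0.023 to 0.057 for Ndufa2, -0.14 to 0.0044 for Ndufab1, -0.059 to 0.21 for Ndufb4, -0.082 to 0.044 for Ndufs1 and -0.042 to 0.28 for Ndufs4. They ran from -0.11 to 0.079 for Ndufaf1 and from -0.19 to 0.021 for Gabpa. In complexes II and III they ran from -0.21 to 0.00075 for Sdha, -0.042 to 0.12 for Sdhd, -0.022 to 0.065 for Uqcrfs1 and -0.14 to 0.014 for Uqcrh. In complex IV they ran from -0.0071 to 0.19 for Cox6c and -0.13 to 0.0080 for Cox7b. In complex V they ran from -0.12 to 0.040 for Atp5b, -0.14 to 0.017 for Atp5e, -0.13 to 0.038 for Atp5f1, -0.015 to 0.15 for Atp5j, -0.30 to 0.015 for Atp5k and -0.27 to 0.0027 for Atp5o. The unknown depth and the rounding to whole numbers limit the precision of low values.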
